A study of Oryza sativa with 10 samples.

Results

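The H3K27me3 and H3K36me3 peaks of the rice variety 93-11 were compared with each other, along with where they lie in the genome. All peaks in the lists of the 2 libraries of 93-11 were taken, 9054 for H3K27me3 and 9714 for H3K36me3, which makes 18768 of the 93054 peaks in the 10 libraries of the study. 93-11, also named Yangdao-6, is an inbred indica variety, and the second fully expanded leaf was sampled from plants grown in the field in summer. The leaves came from 3 plots and were pooled, and each mark was sequenced as 1 library, so no value below has a replicate error and no difference was tested. GL (Guangluai-4) and TQ (Teqing), which are inbred indica varieties too, and both F1 hybrids, GL×TQ and GL×93-11, were processed in the same way and are named only where their values stand beside those of 93-11.

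H3K27me3 is trimethylation of lysine 27 of histone H3, set by Polycomb repressive complex 2 and found in plants over genes that are kept silent in a tissue or stage. H3K36me3 is trimethylation of lysine 36 of the same histone, which in plants is deposited over transcribed genes, mostly within their bodies. On one nucleosome the complex that sets the first mark is known to be hindered by the second, and the marks are often described as opposites. A whole leaf holds many cell types, so 2 peaks at one place may come from the same nucleosomes, from both copies of a chromosome or from different cells, and these cannot be told apart here. Whether reads would also gather at such a place without either antibody was not tested. The peaks were not placed on annotated genes, so neither mark was checked against the genes that it is known for, and no peak is assigned to a gene.

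The library of H3K27me3 held 42879270 unique mapped reads and that of H3K36me3 held 37305130. Peaks took up 3710928 tags (8.65% of these reads) for H3K27me3 and 5364527 tags (14.4%) for H3K36me3, where a tag is a mapped read counted in a peak. The peak caller was MACS, which was run on each library separately. It gives each peak a score, 10 times the negative log10 of its p-value, and a fold enrichment over the tags expected from the surroundings. The reads were mapped to Nipponbare, a japonica variety, and sequence that 93-11 does not share with Nipponbare is therefore missing from both lists. Positions refer to the Nipponbare assembly of the mapping, a version not stated in the sources used here.

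Peaks of H3K36me3 were longer and filled more of the genome than those of H3K27me3. The median length was 2568 bp (95% interval 2541 to 2592) for H3K36me3 and 1866 bp (1838 to 1889) for H3K27me3, a ratio of 1.38 (1.35 to 1.41). The quartiles were 1769 and 3157 bp for H3K36me3, against 1294 and 2626 bp for H3K27me3. Intervals of medians, shares and tags cover counting error only, and that of a ratio joins the ends of both intervals. In the other 4 genotypes the same ratio lay between 1.36 and 1.42, and 93-11 lay within that range.

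The difference lay in the bulk of the peaks and not in the longest ones. Peaks under 1.5 kb made up 34.8% of the H3K27me3 list and 18.7% of the H3K36me3 list, and peaks over 3 kb 16.1% and 31.3%. The upper ends met, at 4491 bp for H3K27me3 and 4348 bp for H3K36me3. In the other 4 genotypes the longest peaks had 4506 to 4532 bp and 4372 to 4401 bp, so this upper end was shared by all libraries. Its cause was not tested. H3K27me3 covered 18.3 Mb, which is 4.92% of the 372.02 Mb up to the last peak of each chromosome in any list, and H3K36me3 covered 23.9 Mb (6.44%). The H3K36me3 list was thus 1.07 times as long in peaks and 1.31 times as long in bp. Few neighbouring peaks lay close enough to be pieces of 1 domain, since only 167 domains of H3K27me3 and 117 of H3K36me3 held more than 1 peak when gaps under 500 bp were closed.

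The longest peaks of both lists were among those with the lowest scores, in the lowest 10% of each, which ended at 60.5 for H3K27me3 and 65.3 for H3K36me3. The longest H3K27me3 peaks of 93-11 were at chr2:4224161-4228651 (4491 bp, 2223 tags), chr8:2052411-2056888 (4478 bp, 2173 tags) and chr5:16826423-16830868 (4446 bp, 1933 tags), with scores of 51.6, 60.4 and 50.9. The longest H3K36me3 peaks were at chr7:13586283-13590630 (4348 bp, 1330 tags), chr11:6065303-6069636 (4334 bp, 1313 tags) and chr1:12704714-12708994 (4281 bp, 1102 tags), with scores of 63.4, 55.2 and 52.4. The lowest score that the lists hold is 50. Of these 6 peaks, 2 had no peak of the same mark at their place in any other genotype.

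Tags were denser in H3K36me3 peaks when the libraries were scaled to their unique mapped reads. The median was 5.73 tags per kb of peak per 1000000 reads (5.69 to 5.77) for H3K36me3 and 3.80 (3.77 to 3.84) for H3K27me3, a ratio of 1.51 (1.48 to 1.53). Without scaling, the medians were 214 and 163 tags per kb, a ratio of 1.31. When tags were instead scaled to all tags in peaks of the same library, the ratio turned to 0.907, because the H3K36me3 peaks hold a larger share of their library. The direction of this difference therefore depends on the library total that is used. In the other 4 genotypes the ratio scaled to unique mapped reads was 1.21 to 1.35, below that of 93-11. Without scaling the ratio was 1.30 to 1.66 in them, with 93-11 near the lower end of that range. The place of 93-11 among the genotypes thus depends on the library total too.

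The distributions crossed at the upper end. Scaled to unique mapped reads, the top 10% began at 6.51 tags per kb per 1000000 reads for H3K27me3 and at 7.52 for H3K36me3, while the densest peaks reached 16.6 and 10.8. Without scaling, the top 10% began at 279 and 281 tags per kb, and the densest peaks reached 711 and 402. Longer peaks were denser for both marks, with a Spearman correlation between length and tags per kb of 0.69 over the 9054 H3K27me3 peaks and 0.67 over the 9714 H3K36me3 peaks. Fold enrichment went the other way with length, with a correlation of -0.39 for H3K27me3 and -0.59 for H3K36me3. The peaks of a list share a library and a depth, and length enters these measures itself, so the correlations are descriptions only.

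**Figure D1:**
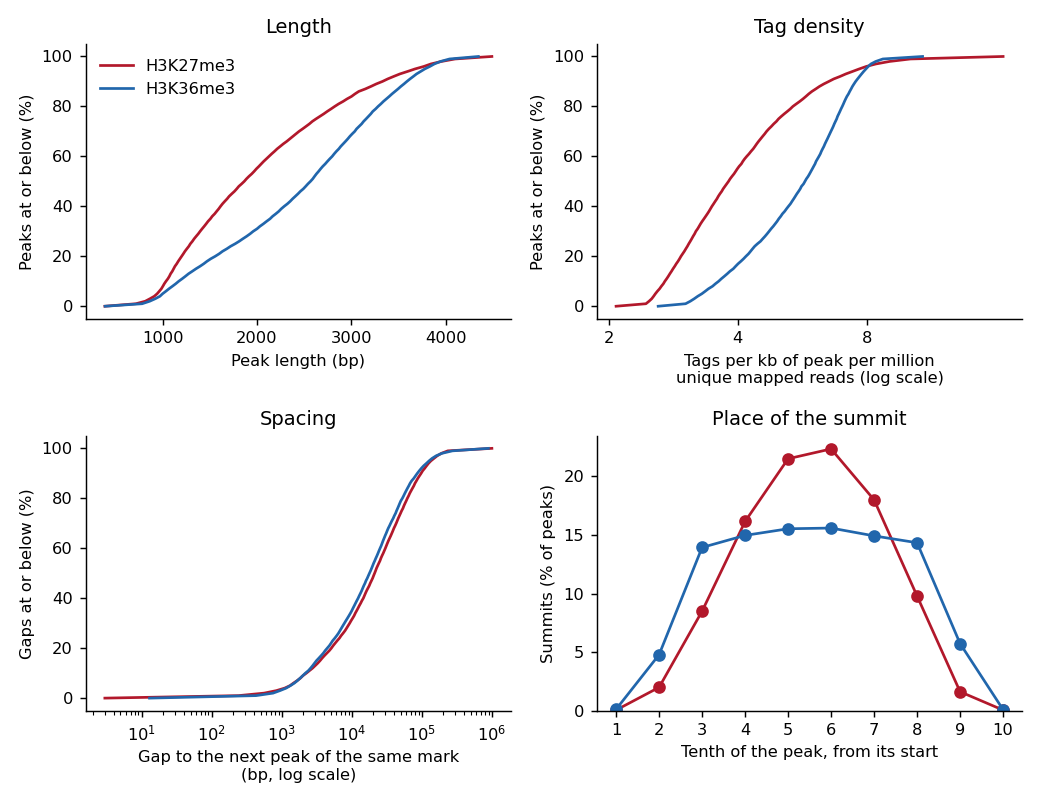
Cumulative curves of peak length (bp), tags per kb per 1000000 unique mapped reads (log axis) and gap to the next peak of the same mark (bp, log axis), and the share of summits in each 10% of the peak's length, for the 9054 H3K27me3 (red) and 9714 H3K36me3 peaks (blue) of 93-11. Over most of their course the H3K36me3 curves lie to the right for length (median 2568 against 1866 bp) and tag density, with a crossing near the top of both, and at the median slightly to the left for gaps, and the H3K36me3 summits are spread over a wider part of the peak.

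The densest H3K27me3 peaks of 93-11 had little enrichment over their surroundings. Those at chr12:25119328-25122609, with 2333 tags (95% Poisson interval 2239 to 2430), and chr12:25122936-25127199, with 2963 tags (2857 to 3072), lie next to each other and had 711 and 695 tags per kb at a fold of 1.86 and 1.87. The third, at chr12:19359820-19361797, had 1252 tags (1184 to 1323), 633 tags per kb, a fold of 2.69 and no H3K27me3 peak at its place in any other genotype. The median fold over all H3K27me3 peaks was 3.18, so the densest places were below it. For H3K36me3, the densest peaks were at chr4:29315754-29319092 (1341 tags, 402 tags per kb, fold 2.49), chr7:20731465-20734735 (1255 tags, 384 tags per kb, fold 2.54) and chr10:10144458-10147207 (1050 tags, 382 tags per kb, fold 3.61). The median fold of that list was 2.98.

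Ranked by fold among peaks with a score of 100 or more, H3K27me3 reached higher values than H3K36me3. The highest H3K27me3 peaks were at chr8:20332737-20333531 (795 bp, 332 tags, fold 12.32), chr5:5134225-5135424 (1200 bp, 326 tags, fold 10.65) and chr4:2773501-2774713 (1213 bp, 297 tags, fold 10.16). The highest H3K36me3 peaks were at chr12:21566161-21567345 (1185 bp, 241 tags, fold 8.86), chr3:28638793-28639940 (1148 bp, 226 tags, fold 8.81) and chr4:9188353-9189380 (1028 bp, 293 tags, fold 8.81). All 6 peaks were short, and 5 of them had a peak of the same mark in all 4 other genotypes and the one on chromosome 5 in 3. Scores of 100 or more were reached by 62.7% of the H3K27me3 and 69.8% of the H3K36me3 peaks.

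The marks differed in where the summit, the point with most tags, lay within the peak. It fell between 40% and 60% of the length in 43.9% of the H3K27me3 peaks (42.9% to 44.9%) and in 31.1% of the H3K36me3 peaks (30.2% to 32.1%). It fell in the first or last 30% in 22.0% (21.1% to 22.8%) and 39.0% (38.0% to 39.9%). The H3K27me3 summits were thus gathered around the centre, while those of H3K36me3 were spread almost evenly between 20% and 80% of the length, at 13.9% to 15.6% for each 10%. Strand and gene direction were not used, so an off-centre summit is not placed towards either end of a gene.

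Within each mark, neighbouring peaks were a little closer for H3K36me3. The median gap from the end of a peak to the start of the next was 17832 bp (17190 to 18524) for H3K36me3 and 21132 bp (20414 to 21837) for H3K27me3, a ratio of 0.844 (0.787 to 0.907). Gaps under 5 kb made up 21.9% and 19.6%, and 747 gaps of H3K36me3 and 860 of H3K27me3 exceeded 100 kb. The widest gaps were 886989 bp for H3K36me3 and 994657 bp for H3K27me3. The spacing ratio of the other 4 genotypes was 0.754 to 0.915, on both sides of 93-11. With the same number of peaks taken from each list by score, the ratio was 0.924, and with scores of 100 or more it was 0.768. The first setting changes the number and the scores of the H3K36me3 peaks together. How far the number of peaks accounts for the difference was not tested.

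Peaks of 93-11 lay nearer to peaks of their own mark than to those of the other. From an H3K27me3 peak the median distance to the nearest H3K36me3 peak was 12767 bp (12283 to 13260), and to the nearest other H3K27me3 peak 9400.5 bp (9045 to 9737), a ratio of 1.36. From an H3K36me3 peak the values were 13586 bp (13030 to 13933) to the other mark and 7724.5 bp (7490 to 8027) to the same mark, a ratio of 1.76. The nearest peak was of the same mark for 55.3% of the H3K27me3 peaks (54.3% to 56.3%) and 58.6% of the H3K36me3 peaks (57.6% to 59.6%). Along the chromosomes 10698 of the 18756 pairs of neighbours (57.0%) were of 1 mark, and the numbers of peaks alone give 50.1%.

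The other mark fell short of the own mark at distances of 1 to 10 kb. The nearest other H3K36me3 peak was 1 to 2 kb away for 10.6% and 2 to 5 kb away for 21.2% of the H3K36me3 peaks, while the nearest H3K27me3 peak was at these distances for 4.75% and 12.02%. For H3K27me3 peaks the same classes held 10.0% and 17.7% for their own mark and 5.19% and 12.5% for H3K36me3. At 10 to 20 kb the shares were nearly equal for H3K27me3, 20.1% for its own mark and 20.0% for the other. Beyond 50 kb from the other mark lay 12.7% of the H3K27me3 and 10.4% of the H3K36me3 peaks. Among peaks that did not overlap the other mark, those within 500 bp of it had a median length of 2103 bp for H3K27me3 and 2419 bp for H3K36me3. In the classes farther away the medians were 1832 to 1901 bp and 2544.5 to 2641 bp, so the closest H3K27me3 peaks were longer and the closest H3K36me3 peaks shorter than the others.

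**Figure D2:**
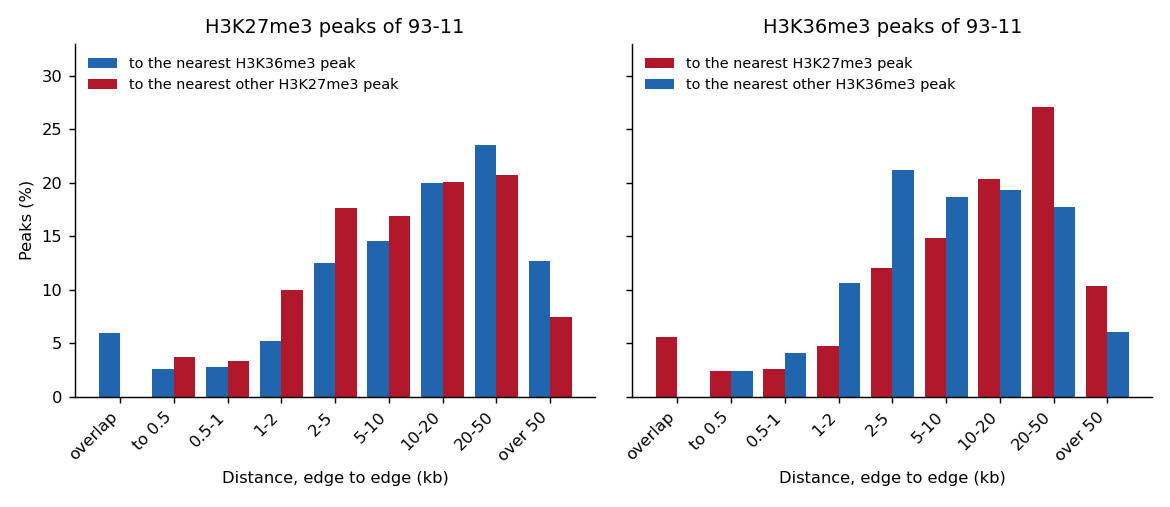
Share of the H3K27me3 peaks (left) and of the H3K36me3 peaks (right) of 93-11 in each class of edge-to-edge distance (kb, classes of unequal width) to the nearest H3K36me3 peak (blue) and the nearest H3K27me3 peak (red). Bars of the same mark are higher at 1 to 10 kb, and bars of the other mark are higher beyond 20 kb.

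Some stretches held peaks of 1 mark only. The longest run of H3K27me3 peaks with no H3K36me3 peak between them had 29 peaks over 580 kb, at chr11:17406571-17986828. The longest run of H3K36me3 peaks had 20 peaks over 221 kb, at chr4:33870073-34091545. Of the peaks farthest from the other mark, the H3K27me3 peaks were all on chromosome 4, at chr4:4029618-4030468 (348 kb from H3K36me3, 101 tags), chr4:3234136-3236286 (321 kb, 350 tags) and chr4:3245592-3246472 (311 kb, 143 tags). The first had no counterpart in any other genotype and the others had one in all 4. The H3K36me3 peaks farthest from H3K27me3 were all on chromosome 12, at chr12:11859483-11862421 (490 kb, 561 tags), chr12:11864509-11865820 (487 kb, 172 tags) and chr12:11912663-11914701 (438 kb, 424 tags).

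Few peaks of 93-11 overlapped a peak of the other mark. By at least 1 bp, 541 of the 9054 H3K27me3 peaks (5.98%, 95% Wilson interval 5.51% to 6.48%) overlapped an H3K36me3 peak and 541 of the 9714 H3K36me3 peaks (5.57%, 5.13% to 6.04%) overlapped an H3K27me3 peak, in 543 pairs. The overlap came to 575 kb, which is 3.14% of the length under H3K27me3 and 2.40% of that under H3K36me3. The product of the covered shares over the length surveyed is 1179 kb, so the marks met on 0.488 times that length. In the other 4 genotypes the same quotient was 0.514 to 0.744, the highest in GL.

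The overlaps ran from partial ones to pairs of nearly identical peaks. In 189 of the 543 pairs (34.8%, 30.9% to 38.9%) the overlap covered at least 80% of both peaks, and such pairs are called coincident below. The limit was chosen, and by itself it makes the lengths of a pair alike and favours close summits. The remaining pairs include peaks that lie wholly inside a longer peak. Coincident peaks were short, with medians of 1132 bp for H3K27me3 and 1156 bp for H3K36me3, and had a median fold of 3.87 and 3.93. Their summits lay a median of 36 bp apart. Whether coincident peaks would also be called without either antibody was not tested. The other 354 pairs had median lengths of 2088 and 1926 bp, a median fold of 3.16 and 3.13, and summits a median of 815.5 bp apart. Without the coincident pairs, a setting chosen after seeing the data, the marks met on 0.269 times the product, and 3.89% of the H3K27me3 and 3.62% of the H3K36me3 peaks overlapped.

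Over all pairs, the overlap had a median of 1033 bp and ran from 8 to 3976 bp. Summits were within 200 bp of each other in 266 pairs (49.0%, 44.8% to 53.2%) and more than 1000 bp apart in 157 (28.9%). An H3K27me3 peak lay wholly inside an H3K36me3 peak in 121 pairs, and the reverse held in 145. The longest overlaps were in coincident pairs of long peaks. The pair at chr3:13477323-13481298 shared 3976 bp, with 644 tags for H3K27me3 (595 to 696) and 686 for H3K36me3 (636 to 739) and summits 3 bp apart, and both marks were also there in 2 other genotypes. The pair at chr12:20632030-20635805 shared 3776 bp with 1035 and 1271 tags, and that at chr4:2353588-2357188 shared 3601 bp with 562 and 584 tags. Those at chr6:15083070-15086374 and chr5:14228472-14231684 shared 3305 and 3213 bp, with 464 and 576 tags in the first and 488 and 606 in the second. Of these 5 places, 3 had both marks in all 4 other genotypes, and the one on chromosome 4 had both in none.

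Overlapping H3K36me3 peaks were unlike the rest of their list, and overlapping H3K27me3 peaks less so. The 541 overlapping H3K36me3 peaks had a median length of 1702 bp (1558 to 1798) and a median fold of 3.38, against 2604 bp (2580 to 2623) and 2.96 for the 9173 others. They also had fewer tags per kb, with a median of 168 against 216. The 541 overlapping H3K27me3 peaks had a median length of 1752 bp (1604 to 1877) and a median fold of 3.39, against 1870 bp (1845 to 1898) and 3.17. For H3K36me3 the overlapping peaks were thus the shorter ones, although a longer peak has more bases that can be overlapped. For H3K27me3 the intervals of the 2 median lengths overlapped. In the 354 pairs that were not coincident, the median was 2088 bp for H3K27me3, above that of its peaks without overlap, and 1926 bp for H3K36me3. Median scores hardly differed, at 135 and 143 for H3K36me3 and 125.2 and 125.4 for H3K27me3.

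The share of peaks that met the other mark was higher in classes of higher fold enrichment, with the wider range for H3K36me3. Of the 4966 H3K36me3 peaks with a fold under 3, 170 overlapped H3K27me3 (3.42%, 2.95% to 3.97%). The share was 6.17% at a fold of 3 to 4, 10.2% at 4 to 5, and 58 of 256 (22.7%, 18.0% to 28.2%) at 5 or more. For H3K27me3 the share went from 177 of 3539 (5.00%, 4.33% to 5.77%) to 48 of 466 (10.3%, 7.86% to 13.4%) over the same classes. In the H3K36me3 class of highest fold, 40 of the 58 overlapping peaks were in coincident pairs, and its median length was 1233 bp against 3010.5 bp in the lowest class. In the other 4 genotypes the H3K36me3 share was 3.64% to 5.91% in the lowest class and 15.1% to 23.1% in the highest. Their H3K27me3 share was 5.34% to 8.47% and 10.7% to 17.0%. In GL these H3K27me3 classes had overlapping intervals, at 8.47% (7.60% to 9.44%) and 10.7% (8.40% to 13.5%).

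All of the 3 H3K36me3 peaks of highest fold lay over H3K27me3 peaks. The one at chr12:21566161-21567345 met an H3K27me3 peak of 1029 bp with a fold of 7.66 and 179 tags, with summits 34 bp apart. The one at chr3:28638793-28639940 met an H3K27me3 peak of 2589 bp (fold 5.16, 511 tags), with summits 1 bp apart. The one at chr4:9188353-9189380 started at the same base as an H3K27me3 peak of 1107 bp (fold 8.72, 268 tags), with summits 97 bp apart. Among the 3 H3K27me3 peaks of highest fold, only that at chr4:2773501-2774713 met the other mark, an H3K36me3 peak of 1274 bp with a fold of 5.14 and 212 tags. These are single peaks: 198 of the 256 H3K36me3 peaks with a fold of 5 or more met no H3K27me3 peak. No library without an antibody was analysed here.

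**Figure D3:**
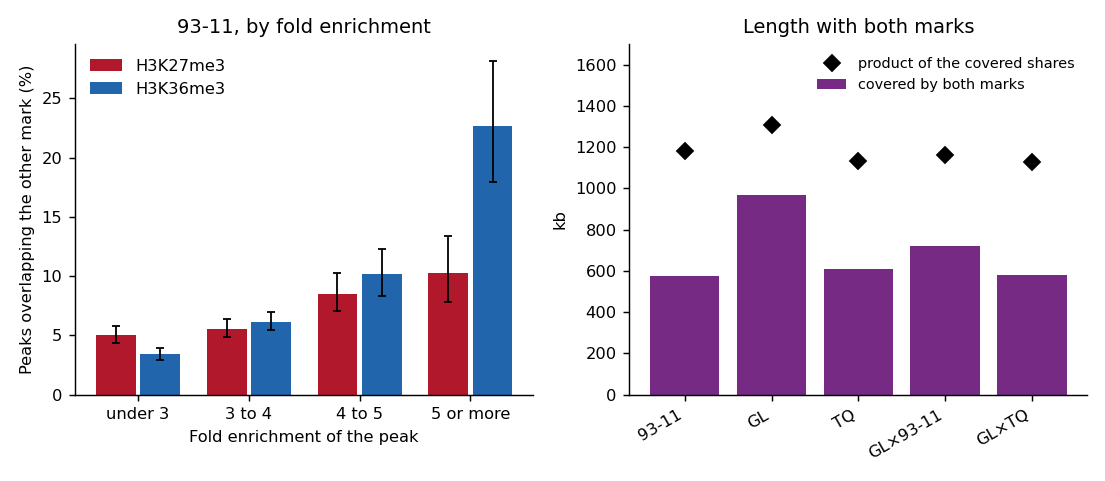
Left, share of the peaks of 93-11 that overlap the other mark in 4 classes of fold enrichment, H3K27me3 red and H3K36me3 blue, with 95% Wilson intervals as error bars; the H3K36me3 share goes from 3.42% to 22.7%. Right, kb covered by both marks in each of the 5 genotypes (bars, 1 library per mark) and the product of the covered shares over the length surveyed (diamonds); 93-11 has 575 kb against 1179 kb.

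Places with both marks in 93-11 often had both in other genotypes. Of the 543 overlaps, 290 (53.4%, 49.2% to 57.6%) had peaks of both marks in GL, 364 (67.0%, 63.0% to 70.9%) had them in GL×93-11, and the count was 318 (58.6%, 54.4% to 62.6%) for TQ and 317 (58.4%, 54.2% to 62.5%) for GL×TQ. Both marks were found in all 4 of them at 205 places (37.8%) and in none at 95 (17.5%). Among the coincident pairs 92 of 189 (48.7%) had both marks in all 4 genotypes, and among the other pairs 113 of 354 (31.9%). For comparison, 69.6% to 75.2% of all H3K27me3 peaks and 77.5% to 86.3% of all H3K36me3 peaks of 93-11 met a peak of their own mark in each of those genotypes. GL×93-11 carries the 93-11 genome itself, and it had the highest of these shares for the overlaps and for each mark.

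The coincident pairs were unevenly spread, and 1 place on chromosome 12 held a cluster of them. It was chosen after its values were seen. In the window chr12:13300001-13400000, 14 overlaps began, 13 of them coincident, within a span of 59.9 kb. The 14 H3K27me3 peaks there had 484 to 2462 bp and 2659 tags in all, and the 16 H3K36me3 peaks had 549 to 2627 bp and 3747 tags. The other 4 genotypes had 13 to 15 overlaps in the same window, 10 to 14 of them coincident. No other 100 kb window of 93-11 held more than 4 coincident pairs, and 150 windows held at least 1.

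On chromosome 12 the marks met on 1.00 times the product of their covered shares, and on 0.741 times without that window. The quotient was 0.867 on chromosome 10 and 0.697 on chromosome 11, and it was lowest on chromosome 3 (0.315) and chromosome 7 (0.322). Chromosome 12 had 34 coincident pairs among 55 overlaps and chromosome 10 had 23 among 44, whereas chromosome 3 had 12 among 51. Chromosomes 10, 11 and 12, with the lowest ratios of H3K36me3 to H3K27me3 cover, were thus those with the highest quotients in 93-11. Chromosomes 10 and 12 also had the highest quotients in the other 4 genotypes. Chromosome 11 did not follow them in GL, with 0.680 against 0.913 on chromosome 9. In GL×93-11 it had 0.708 against 0.714 on chromosome 4.

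Along the 12 chromosomes the cover of H3K27me3 was nearly even and that of H3K36me3 was not. H3K27me3 covered between 4.42% (chromosome 8) and 5.44% (chromosome 11), and H3K36me3 between 4.23% (chromosome 11) and 8.65% (chromosome 3). The ratio of H3K36me3 to H3K27me3 cover was highest on chromosomes 2 (1.71), 3 (1.62) and 1 (1.47). It was close to 1 on chromosomes 10 (1.02) and 12 (1.07), and only on chromosome 11 was H3K27me3 the wider mark, with a ratio of 0.778. In the other 4 genotypes the ratio of chromosome 11 was 0.851 to 0.951, also below 1 but nearer to it. Chromosome 11 had the most H3K27me3 peaks per Mb (27.4) and the fewest H3K36me3 peaks per Mb (18.6), against 25.5 and 33.8 on chromosome 3.

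**Figure D4:**
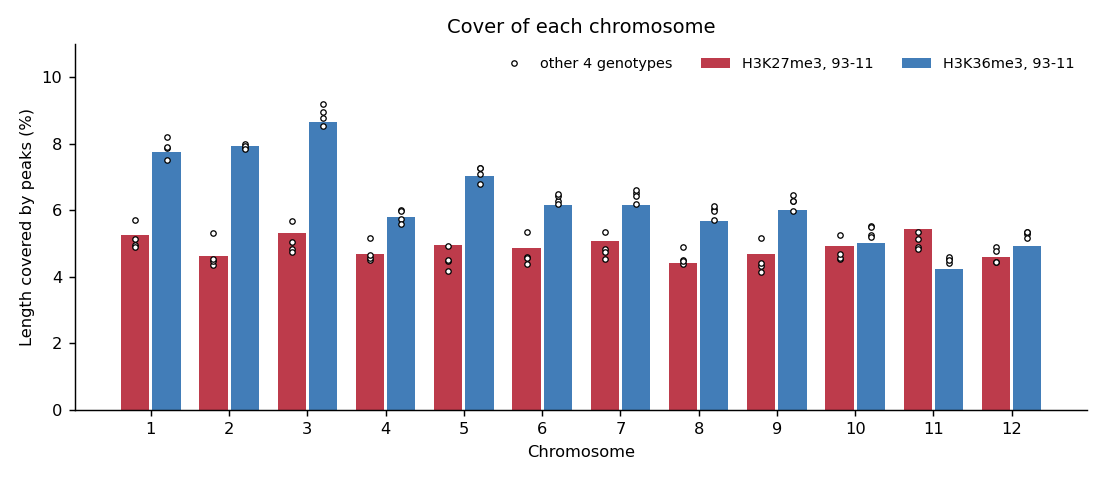
Share of each chromosome's length covered by H3K27me3 peaks (red bars) and H3K36me3 peaks (blue bars) of 93-11, 1 library each, with the values of GL, TQ, GL×93-11 and GL×TQ as open circles. Red bars stay between 4.42% and 5.44%, and blue bars fall from 8.65% on chromosome 3 to 4.23% on chromosome 11, where the red bar is the taller one.

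Within chromosomes, the 3714 full windows of 100 kb mostly held both marks. Peaks of both were present in 2724 windows (73.3%), only H3K27me3 in 434 (11.7%), only H3K36me3 in 382 (10.3%) and neither in 174 (4.68%). A window was called for 1 mark when that mark covered over 2 times as many bp as the other. By this limit 1301 windows (35.0%) were called for H3K36me3 and 932 (25.1%) for H3K27me3, and 1307 (35.2%) held peaks but went to neither side. The limit was not adjusted for the total cover, which is 1.31 times as large for H3K36me3 and so favours calls for that mark. All full windows of 93-11 enter these shares.

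Over the windows the levels of the marks were nearly unrelated. The Spearman correlation between the bp covered by each was 0.08 and the Pearson correlation 0.01 over the 3714 windows, which share the libraries, the depth and the base composition of the region. Leaving out the 174 windows with no peak turned the Spearman correlation to -0.03, windows of 500 kb raised it to 0.23, and the correlation within single chromosomes went from -0.07 on chromosome 2 to 0.26 on chromosome 4. The size and sign of this relation therefore depended on the windows taken, while single peaks of the marks overlapped on less than the product of their shares.

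Mean H3K27me3 cover did not rise or fall steadily with H3K36me3 cover. With the windows ranked by H3K36me3 cover and divided into 5 classes of equal size, the mean H3K27me3 cover was 4.17, 5.02, 5.36, 5.47 and 4.61 kb from the lowest to the highest class. The mean of H3K27me3 was thus lower in the lowest and highest classes than between them. The lowest class holds all 174 windows with no peak of either mark, because these have no H3K36me3. They are among its 194 windows without H3K27me3 and lower its mean, and no mean was taken without them. The low mean of the lowest class can therefore not be told apart from the effect of these windows. The mean H3K36me3 cover ran from 0.171 to 15.1 kb over the same classes. Windows with no H3K27me3 peak made up 26.1% of the lowest class, 9.02% of the class below the highest and 13.1% of the highest.

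**Figure D5:**
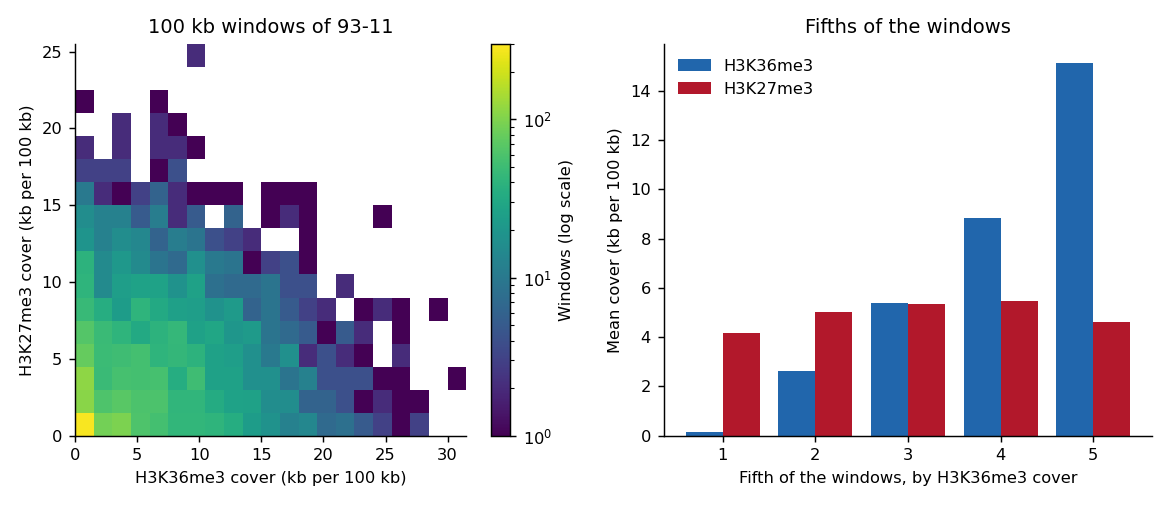
Left, number of 100 kb windows of 93-11 (colour, log scale) by the kb covered by H3K36me3 (horizontal) and by H3K27me3 (vertical), over 3714 full windows. Right, mean cover of both marks in 5 classes of equal size, ranked by H3K36me3 cover; H3K27me3 stays between 4.17 and 5.47 kb while H3K36me3 goes from 0.171 to 15.1 kb.

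Neighbouring windows were more alike in H3K36me3 cover than in H3K27me3 cover. The correlation between neighbouring windows was 0.33 for H3K36me3 and 0.17 for H3K27me3, and the SD over windows was 5.51 kb around a mean of 6.43 kb and 4.04 kb around a mean of 4.93 kb. In both marks a similar share of windows, 21.8% for H3K36me3 and 22.6% for H3K27me3, held as much cover as all the rest together. H3K36me3 was also denser near the chromosome ends, with a mean of 8.70 kb per window in the outermost 1 Mb and 5.07 kb beyond 10 Mb from an end. H3K27me3 had 4.94 and 4.60 kb there. The ends were those of the length surveyed, not of an assembly.

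Windows with the most H3K27me3 were not all free of H3K36me3. The highest, at chr5:23300001-23400000, had 25.3 kb of H3K27me3 in 11 peaks and 10.2 kb of H3K36me3 in 4, and that at chr4:28500001-28600000 had 24.9 kb in 9 peaks and 10.2 kb in 3. The third, at chr11:19400001-19500000, had 21.6 kb in 9 peaks and no H3K36me3, while the other 4 genotypes had 0.951 to 3.67 kb of H3K36me3 there. The windows with the most H3K36me3 were at chr5:22500001-22600000 (31.2 kb in 11 peaks, 3.72 kb of H3K27me3), chr1:38900001-39000000 (29.8 kb, 7.88 kb) and chr4:22000001-22100000 (28.4 kb, 1.80 kb). No overlap of the marks lay wholly inside these last 3 windows, which held 1, 3 and 1 H3K27me3 peaks. Peaks of a window are counted by their midpoint.

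The windows richest in both marks had at most 2 overlaps wholly inside them. Over the whole list 5.98% of the H3K27me3 peaks overlapped H3K36me3, so these counts do not show fewer overlaps than elsewhere. That at chr9:20600001-20700000 had 7 peaks of each mark, with 15.99 kb of H3K27me3 and 17.5 kb of H3K36me3, and 1 overlap. That at chr1:43100001-43200000 had 6 H3K27me3 and 8 H3K36me3 peaks, 15.8 and 19.3 kb, and 2 overlaps. That at chr3:28000001-28100000 had 8 H3K27me3 and 6 H3K36me3 peaks, 15.8 and 16.3 kb, and no overlap.

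Runs of windows called for the same mark gave the longest territories. The longest for H3K27me3 was at chr11:16800001-18000000, with 108 kb of H3K27me3 in 52 peaks and 15.0 kb of H3K36me3 in 9 over 12 windows. The other 4 genotypes had 61.0 to 77.4 kb of H3K27me3 and 16.9 to 18.6 kb of H3K36me3 there. The run was chosen by the calls in 93-11 itself, which favours a larger surplus there, so these values are a description only. The next, at chr12:15900001-16700000, had 71.6 kb of H3K27me3 and 8.83 kb of H3K36me3, within the 62.6 to 77.0 kb of H3K27me3 of the others. For H3K36me3 the longest runs were at chr3:5600001-6600000, with 137 kb of H3K36me3 in 49 peaks and 20.9 kb of H3K27me3 in 14, and at chr2:800001-1700000, with 144 and 29.2 kb. Runs of 5 or more windows numbered 12 for H3K27me3 and 24 for H3K36me3, beside the 25.1% and 35.0% of windows called.

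Stretches with no peak of either mark were the third kind of territory. The longest were at chr8:13103763-13935274 (832 kb), chr7:13778537-14489976 (711 kb) and chr6:18216003-18837151 (621 kb). The first held 2 to 4 H3K27me3 peaks and 1 to 4 H3K36me3 peaks in each of the other genotypes. In the second they had 0 to 2 H3K27me3 peaks and 0 or 1 H3K36me3 peak, with no peak of either mark in GL×93-11. The third held 2 or 3 H3K27me3 peaks and no H3K36me3 peak in each. Of the 42 stretches over 200 kb, 10 were on chromosome 12 and none on chromosome 3.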

How the data were processed

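Chromatin of 93-11 leaves was examined with antibodies against H3K27me3 and H3K36me3. Reads were filtered and mapped to Nipponbare with SOAP2 by the authors, and peaks were called per library with MACS. The sources used here do not name an input control for the calls. The deposited lists hold the position of each peak, its count of tags, its fold enrichment ratio and a score. The score column has lost its heading and was read as 10 times −log10 p, because its lowest value is 50. One H3K27me3 peak began before position 1 of chromosome 11 and was clipped. Library totals were the study's unique mapped reads. Distances run from edge to edge, overlaps need 1 bp, and windows of 100 kb count when full.

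Shares have 95% Wilson intervals, tags exact Poisson intervals and medians intervals from order statistics. Named for each mark were the 3 peaks of highest fold (score of 100 or more), most tags per kb, greatest length and greatest distance from the other mark, with the 5 longest overlaps, the 3 windows richest in each mark and in both, and the 3 longest empty stretches. The members, measures and rules were chosen with earlier results of these data known. The computation was tested on simulated data of 2400 peaks per mark, and 6 of 6 checks matched. The tools were matplotlib 3.10.9, pandas 2.3.3, numpy 2.4.6 and scipy 1.17.1 under Python 3.11.15. Alternatives changed the score minimum, number of peaks, joining, library total, overlap and window. Other lists served only for comparison.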

Additional observations from a re-analysis of the deposited data

Results flagged for a closer look

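For 9 measures, the 5 genotypes were compared as 5 single values, and in 2 of them GL stood apart from the rest. The share of H3K36me3 peaks that overlap H3K27me3 was 8.71% in GL and 5.57% to 6.45% in the others, with 5.57% in 93-11. The correlation of the marks over 100 kb windows was 0.102 in GL and 0.0676 to 0.0771 in the others, with 0.0771 in 93-11. Genotypes are not replicates, about 1 in 20 groups is set apart by chance, and no value of 93-11 was. The cause was not tested.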

How the results depend on the processing

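Of 44 alternatives, 5 of them chosen after seeing the data, 23 left the value within its limit, 19 moved it and 2 turned its direction. The limit was the counting interval, for the correlation the same value at 2 decimals, and for the number of windows 1.5 times. With scores of 100 or more, the ratio of H3K36me3 to H3K27me3 was 1.27 for length, 1.41 for tags per kb and 0.768 for spacing, 4.35% of the H3K27me3 and 3.64% of the H3K36me3 peaks overlapped, the distance ratio of H3K27me3 peaks was 1.22 and the correlation over windows 0.0446. With the same number of peaks per mark, the spacing ratio was 0.924 and the distance ratio 1.48. The tags per kb ratio was 1.31 with no library total and turned to 0.907 with tags in peaks as the total. An overlap of 50% of the shorter peak was met by 4.52% and 4.19%. Without coincident pairs (added) the shares were 3.89% and 3.62%, and the quotient of the shared length 0.269. The Spearman correlation of the marks over windows was 0.0200 at 50 kb, 0.233 at 500 kb and 0.0725 for peak midpoints, turned to -0.0299 in windows with a peak of either mark, and had a median of 0.109 within chromosomes (added). The number of windows called for H3K36me3 stayed between 971 and 1611. Apart from what these settings change by construction, the cause was not tested. With 1 library per mark, neither the antibody nor the library can be told apart from the mark. No paired analysis was possible because no comparison came from a test and each mark has 1 library.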
